A study of Mus musculus with 2 samples.

Results

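Inflammatory cytokines, parts of the inflammasome and feedback genes of NF-kB were followed in single microglia, the resident macrophages of the brain, from a wild-type (WT) library and a library labelled IRF8KO. The 10 genes were taken by symbol from 31053 features: Il1a, Il1b, Il18, Tnf, Nfkb1, Nfkbia, Nfkbiz, Tnfaip3, Nlrp3 and Casp1. Each symbol occurs a single time in the feature table. Values were taken over cells that had 1000 or more UMIs, 500 or more genes and no more than 10% mitochondrial UMIs, a UMI being the tag by which each captured transcript is counted once. Cells with 2% or more of their UMIs in Camp, Ngp, S100a8, S100a9, Lcn2 and Ltf, genes of neutrophil granules, were set aside. This left 3304 WT cells and 5007 IRF8KO cells.

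The WT group was 1 library of C57BL/6 female mice aged 3 months with no treatment. The IRF8KO group was 1 library of female mice of the same strain and age, also untreated, named for loss of the transcription factor IRF8. Its title reads IRF8KO while its genotype entry reads WT, the allele is not named, and it is therefore called the library labelled IRF8KO, and its cells IRF8KO cells. For each library, cells of 3 mice were pooled, isolated without enzymes and sorted by flow cytometry before droplet sequencing, so the animals within a pool cannot be separated and each group has a single value. Differences have no replicate check and carry no p-value. The intervals printed are exact at 95% and cover counting error only.

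Interleukin-1 alpha and beta, interleukin-18 and tumour necrosis factor are secreted signals of innate immunity. NF-kB is the family of transcription factors that stands behind many inflammatory genes: it is held in the cytoplasm by inhibitors such as the protein encoded by Nfkbia, is released when a kinase complex marks that inhibitor for destruction, and then drives transcription of the same inhibitor and of Tnfaip3, which end the response. The NLRP3 inflammasome is a protein platform that activates caspase-1, the protease that matures interleukin-1 beta and interleukin-18. Microglia are known to carry these components at rest and to make the cytokines on stimulation.

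Promoter sequences are shown because several of these genes are textbook NF-kB targets, and the results turn on members that stood on opposite sides. The RefSeq table of promoters (GRCm38.p6) held 8 of the 10 genes, all but Nfkbiz and Nfkb1. The 250 bases before each start site were searched on both strands for the 10-base NF-kB consensus. A match stood in 3 of the 8 genes, Nfkbia, Tnfaip3 and Nlrp3, beside 8.23% of all 27025 genes in the table and 7.25% of its 32851 windows. Sequences run 5′ to 3′ on the strand of the gene, and capitals mark a match.
Nfkbia, chr12:55492648-55492897, - strand: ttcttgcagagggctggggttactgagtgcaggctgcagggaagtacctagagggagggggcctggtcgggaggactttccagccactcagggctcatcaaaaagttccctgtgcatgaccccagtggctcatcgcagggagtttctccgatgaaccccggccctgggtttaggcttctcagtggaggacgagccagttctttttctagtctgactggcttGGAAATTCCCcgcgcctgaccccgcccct
Il1a, chr2:129309973-129310222, - strand: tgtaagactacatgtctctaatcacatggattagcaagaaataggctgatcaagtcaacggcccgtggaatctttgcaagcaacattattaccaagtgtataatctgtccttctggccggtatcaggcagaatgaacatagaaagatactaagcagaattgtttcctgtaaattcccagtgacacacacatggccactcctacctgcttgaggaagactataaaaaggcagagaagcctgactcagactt
Il1b, chr2:129371140-129371389, - strand: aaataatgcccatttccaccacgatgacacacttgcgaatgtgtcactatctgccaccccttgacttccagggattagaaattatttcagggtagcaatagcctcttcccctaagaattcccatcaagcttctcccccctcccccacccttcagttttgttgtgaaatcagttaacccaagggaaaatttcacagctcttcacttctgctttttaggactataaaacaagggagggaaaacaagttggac
Tnf, chr17:35202008-35202257, - strand: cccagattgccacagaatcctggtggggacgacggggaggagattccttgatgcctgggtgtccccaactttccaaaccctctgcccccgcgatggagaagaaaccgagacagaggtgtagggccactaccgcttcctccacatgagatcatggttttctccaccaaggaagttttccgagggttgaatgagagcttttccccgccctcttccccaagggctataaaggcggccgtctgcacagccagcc
Tnfaip3, the match 125 to 116 bases before the start site: gactcacgcgGGGACACCCCggggcgggac
Tnfaip3, the match 12 to 3 bases before the start site: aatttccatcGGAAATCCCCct
Nlrp3, the match 186 to 177 bases before the start site: ggcttctgcaGGGAACCCCCgggaattctg

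The Nfkbia match lies 29 to 20 bases before the start site. Tnfaip3 and Nlrp3 each have a further window in the table, before another start site, and those windows hold no match. The Tnfaip3 window with the matches overlaps exons of GENCODE M21 by 110 bases, so only its matches are printed. A match describes letters in this window, and its absence in the windows of Il1a, Il1b and Tnf says nothing about sites elsewhere.

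The WT cells used held 18543061 UMIs (median 3204.5 per cell) and the IRF8KO cells 18980263 (median 2933). The median mitochondrial share was 2.09% and 3.70%. All 11 fixed microglia markers were detected in both libraries, and they summed to 34550 CPM among WT cells and 17246 CPM among IRF8KO cells, CPM being UMIs per 1000000 UMIs of the cells used. Border macrophage markers summed to 14.1 CPM, with 4 of 8 at 0, and to 2642 CPM, with none at 0, so the sorted cells of the library labelled IRF8KO differed from WT cells far beyond the 10 genes. T, NK and B cell markers summed to 0.0539 and 0.263 CPM. The libraries shared 5 cell barcodes. Over the 8859 genes that reached 10 CPM in either library, the median log2 ratio, log2 of IRF8KO CPM over WT CPM, was -0.28. TMM scaling, which adjusts totals for genes that dominate a library, moved that median by 0.26 to -0.02.

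Of the 10 genes, 4 had a log2 ratio of 1 or more (Il1b, Nfkbiz, Tnf and Nfkbia) and 1 had a log2 ratio of -1 or less (Il1a). Among all 8859 genes, 5.61% were at 1 or more and 9.28% at -1 or less, and under TMM scaling these shares were 7.65% and 6.05%. The other 5 genes lay between. A ratio above 0 was seen for 5 of the 10, beside 25.1% of all genes. That share depends on the scaling: under TMM scaling 6 of the 10 were above 0, and the median of all genes was -0.02. The median over the 10 genes was -0.08, or 0.19 above the median of all genes. Each of the 10 genes reached that minimum, but Il1b and Tnf did so only in the library labelled IRF8KO, so their presence among genes above that minimum already required a difference. The genes were grouped with earlier results of these data known, and the counts describe the list.

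**Figure D1:**
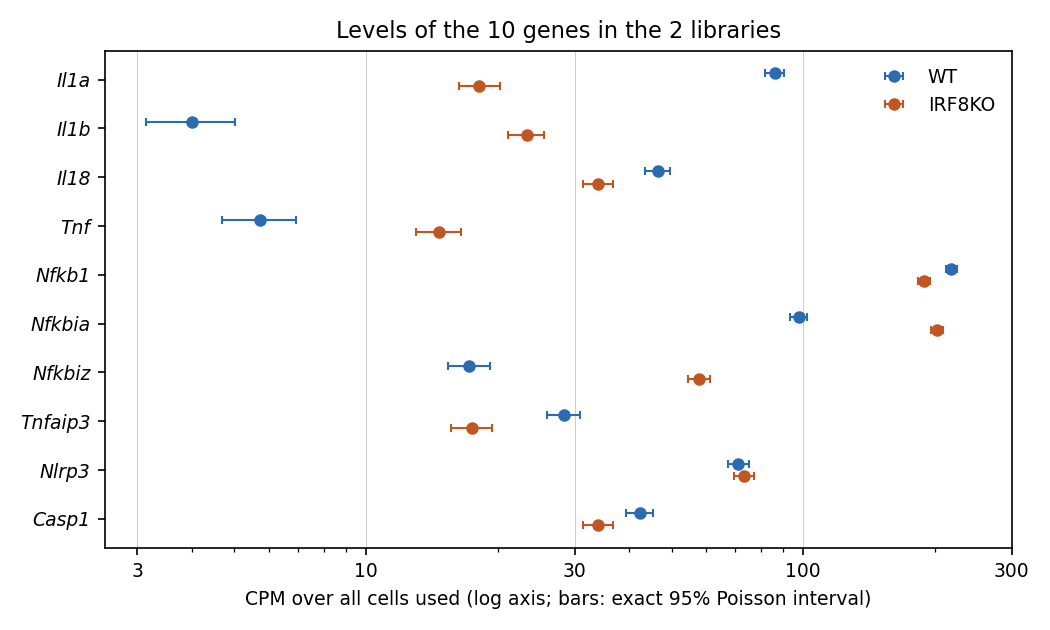
Level of each gene in CPM on a log axis, 1 point per library, with exact 95% Poisson intervals for counting error. Il1a sits at 86.1 CPM for WT and 18.2 for IRF8KO, while Il1b, Tnf, Nfkbia and Nfkbiz sit higher in the latter and Nlrp3 overlaps.

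The 2 interleukin-1 genes stood on opposite sides. Il1a and Il1b encode ligands of the same receptor and are neighbours on chromosome 2, 54597 bases apart on the - strand (GENCODE M21 on GRCm38). Il1a (ENSMUSG00000027399, 129299610 to 129309972) had 1597 WT UMIs and 345 IRF8KO UMIs, or 86.1 CPM (82.0 to 90.5) and 18.2 CPM (16.3 to 20.2). IRF8KO cells had 4.74-fold less, with a log2 ratio of -2.24 (-2.42 to -2.08), and the intervals of the libraries did not overlap. Il1b (ENSMUSG00000027398, 129364570 to 129371139) had 74 and 442 UMIs, or 3.99 CPM (3.13 to 5.01) and 23.3 CPM (21.2 to 25.6). IRF8KO cells had 5.84-fold more, with a log2 ratio of 2.54 (2.19 to 2.92). Il1a lay at the 2.44 percentile of the ratios of all genes and Il1b at the 97.9 percentile. A gene on the other strand within Il1b, Il1bos, was counted separately and had 11 and 4 UMIs.

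Tnf (ENSMUSG00000024401, chromosome 17, 35199381 to 35202007, - strand) encodes tumour necrosis factor. It had 106 UMIs in WT cells, or 5.72 CPM (4.68 to 6.91), and 279 in IRF8KO cells, or 14.7 CPM (13.03 to 16.5). The ratio was 2.57-fold, log2 1.36 (1.03 to 1.70). Il18 (ENSMUSG00000039217, chromosome 9, 50554827 to 50581840, + strand) encodes interleukin-18, which is stored as a precursor. It had 861 and 645 UMIs, or 46.4 CPM (43.4 to 49.6) and 34.0 CPM (31.4 to 36.7). Its log2 ratio of -0.45 (-0.60 to -0.30) was -0.17 from the all-gene median, and it lay at the 32.6 percentile of all genes. Bco2 and Tex12 overlap Il18 on the other strand, with 543 and 8 UMIs in WT and 220 and 28 in the other library.

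The NF-kB subunit and its inhibitors did not move together. Nfkb1 (ENSMUSG00000028163, chromosome 3, 135584655 to 135691547, - strand) encodes the p105 precursor of the p50 subunit. It had 4049 WT UMIs and 3584 IRF8KO UMIs, or 218 CPM (212 to 225) and 189 CPM (183 to 195), a log2 ratio of -0.21 (-0.27 to -0.14). Against the all-gene median this was 0.07, and under TMM scaling the ratio changed side, to 0.044. Nfkbia (ENSMUSG00000021025, chromosome 12, 55489410 to 55492647, - strand) encodes I kappa B alpha, the inhibitor that NF-kB itself induces. It had 1810 and 3844 UMIs, or 97.6 CPM (93.2 to 102.2) and 203 CPM (196 to 209), and was 2.07-fold higher in the library labelled IRF8KO, log2 1.05 (0.97 to 1.13). Its counting interval spans 1, and the main value and the alternatives ran from 1.03 to 1.31.

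Nfkbiz (ENSMUSG00000035356, chromosome 16, 55811375 to 55838899, - strand) encodes I kappa B zeta, a nuclear protein that selects among NF-kB targets. It had 319 WT UMIs and 1098 IRF8KO UMIs, or 17.2 CPM (15.4 to 19.2) and 57.8 CPM (54.5 to 61.4). This was 3.36-fold, log2 1.75 (1.57 to 1.93). Tnfaip3 (ENSMUSG00000019850, chromosome 10, 19000910 to 19015657, - strand) encodes A20, an enzyme that edits ubiquitin and ends signalling to NF-kB. It had 526 and 331 UMIs, or 28.4 CPM (26.0 to 30.9) and 17.4 CPM (15.6 to 19.4), and was 1.63-fold lower in the library labelled IRF8KO, log2 -0.70 (-0.90 to -0.50). Against the all-gene median, Tnfaip3 was at -0.42, and it lay at the 16.8 percentile of all genes. Among the 3 feedback genes, Nfkbia and Nfkbiz were thus higher and Tnfaip3 lower, under each scaling tried. Nfkbia and Tnfaip3, which both carry a match to the NF-kB consensus in the windows above, stood on opposite sides.

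Sensor and protease of the inflammasome were near the level of WT. Nlrp3 (ENSMUSG00000032691, chromosome 11, 59541568 to 59566956, + strand), the sensor, had 1318 WT UMIs and 1387 IRF8KO UMIs, or 71.1 CPM (67.3 to 75.02) and 73.1 CPM (69.3 to 77.0). Its log2 ratio of 0.04 (-0.07 to 0.15) has an interval that includes 0, and against the all-gene median it was 0.32. Casp1 (ENSMUSG00000025888, chromosome 9, 5298517 to 5307265, + strand), the protease, had 783 and 645 UMIs, or 42.2 CPM (39.3 to 45.3) and 34.0 CPM (31.4 to 36.7). Its log2 ratio of -0.31 (-0.47 to -0.16) was -0.03 from the all-gene median.

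The genes differed in how many cells carried them. To compare shares across depths, each cell was thinned at random to 2000 UMIs, which left 3019 WT and 4509 IRF8KO cells. Il1a had a UMI in 14.9% of thinned WT cells (13.7 to 16.2) and in 3.46% of thinned IRF8KO cells (2.95 to 4.04), against 30.3% and 5.87% without thinning. Il1b had a UMI in 0.331% (0.159 to 0.608) and 2.51% (2.07 to 3.01), against 1.42% and 3.73% without thinning. Tnf stood at 0.961% and 2.40%, against 2.88% and 3.99%. Nfkbia stood at 15.4% and 29.2%, and Nfkbiz at 2.88% and 9.16%, against 29.8% and 40.8% and 8.14% and 15.7% without thinning. Tnfaip3 went the other way, with 4.84% and 3.08% of thinned cells and 12.5% and 5.71% without thinning.

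The remaining 4 genes had closer shares in thinned cells. They were 33.2% and 30.2% for Nfkb1, 12.4% and 14.0% for Nlrp3, 8.48% and 6.54% for Il18, and 8.41% and 7.03% for Casp1. Without thinning they were 53.1% and 44.1%, 25.8% and 22.1%, 19.7% and 11.4%, and 18.3% and 11.4%. Nlrp3 thus changed side with thinning, and the thinned order is the one that goes with its CPM. The cell type at hand for a background is the group of 98 IRF8KO cells set aside for neutrophil genes (median 7057.5 UMIs). None of them had an Il1a UMI, so that shares of cells with a UMI up to 3.06% remain possible at a limit of 3 counts, and 2.04% had an Il1b UMI, 1.02% an Il18 UMI and 5.10% an Nlrp3 UMI. Tnf and Nfkbia had UMIs in 19.4% and 51.0% of them, Nfkbiz in 9.18%, Nfkb1 in 40.8%, Tnfaip3 in 4.08% and Casp1 in 10.2%. All these shares of the set-aside cells are without thinning. After thinning, which left 97 of them, Tnf and Nfkbia stood at 5.15% and 22.7% and Nfkbiz at 2.06%. Nfkb1 then stood at 16.5%, Tnfaip3 at 1.03% and Casp1 at 3.09%. Neutrophils can express several of these genes, so the set is no clean background for them. The thinned shares of Il1b and Tnf, at or under 2.51%, are low enough that single UMIs from free RNA were not set apart.

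Il1b UMIs were packed into few cells in both libraries, while those of most other genes were spread. In WT, Il1b lay in 47 cells, and 10 of them held 50% of its 74 UMIs. A single WT cell held 17 of them. In the library labelled IRF8KO, Il1b lay in 187 cells, 27 of which held 50% of its 442 UMIs, and 15 cells with 5 or more UMIs each held 40.3%. The most in any cell was 34. The 50 IRF8KO cells that held most Il1b carried 64.3% of it, against 46.2% for Tnf, 29.3% for Il1a and 11.0% for Nfkbia, whose totals also differ.

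**Figure D2:**
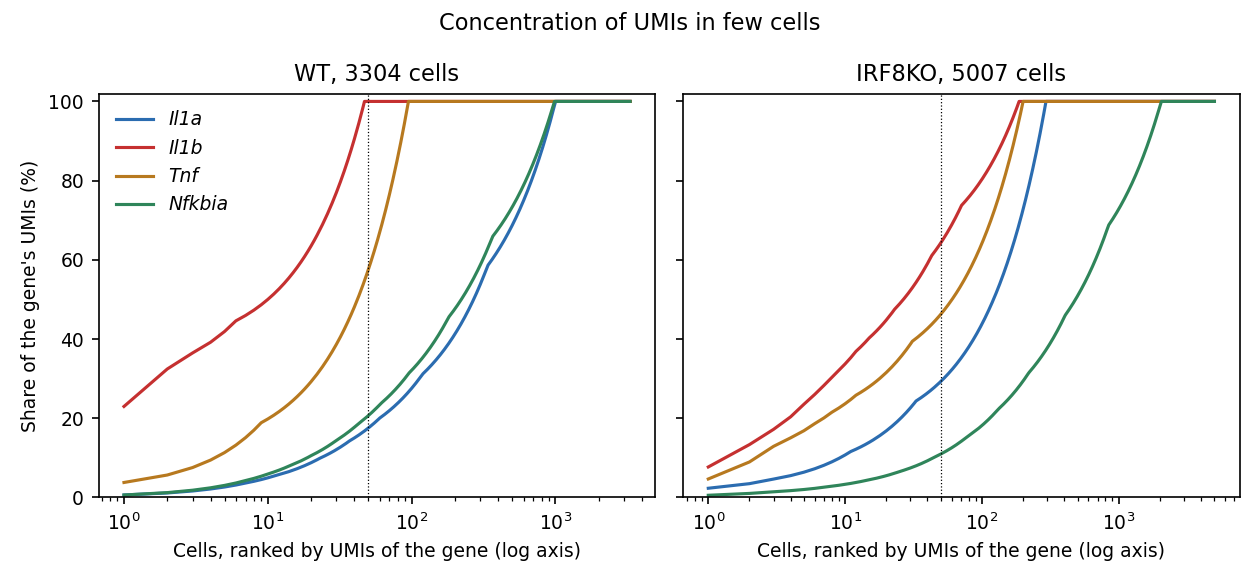
Cumulative share of a gene's UMIs over cells ranked by their UMIs of that gene, on a log axis, in each library, with a dotted line at 50 cells. The Il1b curve climbs first in both libraries, and the Il1a curve moves toward few cells from WT to the library labelled IRF8KO, where its total is 345 UMIs in place of 1597.

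The ratio of variance to mean of thinned counts, which is 1 under Poisson sampling, was taken as a measure at equal depth. For Il1b it was 6.33 for WT and 4.63 for IRF8KO, against medians of 1.03 and 1.04 over all genes. These values lay at the 99.9 and 99.8 percentile of all genes. The WT value came from 21 thinned UMIs in 10 cells, and 1 cell held 11 of them, so it rests mainly on that cell. Nfkbia had 1.28 and 1.46, at the 98.5 and 98.4 percentile. Tnf had 1.06 in WT cells, at the 75.5 percentile, and 1.54 in IRF8KO cells, at the 98.7 percentile. Nfkbiz had 0.97 and 1.29, at the 3.01 and 97.2 percentile, and Il1a 1.08 and 1.20, at the 84.4 and 95.5 percentile. Nfkbia thus stood high by this measure although its 50 leading IRF8KO cells held a small share of its UMIs. Il18, Nfkb1, Tnfaip3, Casp1 and Nlrp3 stayed between 0.97 and 1.09 in both libraries. Thinning sets the depth of cells equal but not the level of a gene, and this ratio can rise with the level. Mean thinned counts, WT first, were 0.0288 and 0.109 for Nfkbiz, 0.00994 and 0.0282 for Tnf and 0.169 and 0.0384 for Il1a. Differences in the ratio between the libraries are therefore not at equal level, and the part of the level was not tested. For comparison, 50% of the UMIs lay in 270 and 122 cells for Il1a, in 222 and 483 cells for Nfkbia and in 110 and 237 cells for Nfkbiz, WT first.

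Cells were then grouped by the UMIs of other genes after thinning. Cells with 5 or more UMIs of Ccl3 and Ccl4, chemokine genes of activated microglia, numbered 21 among WT cells and 31 among IRF8KO cells. In them Il1b stood at 169 CPM (27 UMIs) among WT cells and 505 CPM (63 UMIs) among IRF8KO cells, and Tnf at 99.9 and 288 CPM (16 and 36 UMIs). In the cells with fewer than 5, Il1b stood at 2.57 CPM (46 UMIs) and 20.8 CPM (375 UMIs). These chemokine-rich cells therefore held 27 of 74 Il1b UMIs among WT cells and 63 of 442 among IRF8KO cells. Ccl3 itself was at 38.2 and 39.6 CPM over all cells and Ccl4 at 75.6 and 51.1 CPM. The Il1b log2 ratio was 1.58 (0.91 to 2.29) within the chemokine-rich cells and 3.02 (2.58 to 3.50) in the rest, so Il1b was higher in the library labelled IRF8KO in both. Nfkbia was at 212 and 409 CPM in chemokine-rich cells and at 96.8 and 201 CPM in the rest. Tnfaip3 was at 24.98 and 72.1 CPM in them, from 4 and 9 UMIs, and at 28.4 and 17.1 CPM in the rest.

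Immediate early genes, which respond within minutes to stimulation and to handling of cells, were used to set further ranges of cells. Cells were divided into ranges, unequal because of ties, by their UMIs of 9 such genes after thinning, at 0 to 1, 2, and 3 or more. In the library labelled IRF8KO, Il1b went from 11.8 through 31.9 to 56.1 CPM, Tnf from 9.24 through 13.2 to 34.0 CPM and Nfkbia from 180 through 201 to 275 CPM. Nfkbiz went from 48.6 through 61.8 to 83.8 CPM, and Il1a from 15.8 through 20.1 to 26.9 CPM. In WT, Nfkbia stayed at 95.5, 99.7 and 101 CPM, Il1a at 86.3, 87.0 and 86.0 CPM, and Nfkbiz at 16.7, 18.2 and 18.2 CPM. WT cells of the highest range had more Il1b and Tnf, with Il1b at 2.55, 1.72 and 9.71 CPM and Tnf at 5.01, 4.67 and 8.29 CPM. Whether the gradients differ between the libraries was not tested, nor was the part of these genes in the differences. In the lowest range, where early genes are at 0 or 1 UMI, the log2 ratio was 2.20 (1.58 to 2.88) for Il1b, -2.45 (-2.69 to -2.21) for Il1a and 0.92 (0.81 to 1.03) for Nfkbia. For Tnfaip3 it was -0.90 (-1.19 to -0.62) in the lowest range and 0.02 (-0.39 to 0.43) in the highest.

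**Figure D3:**
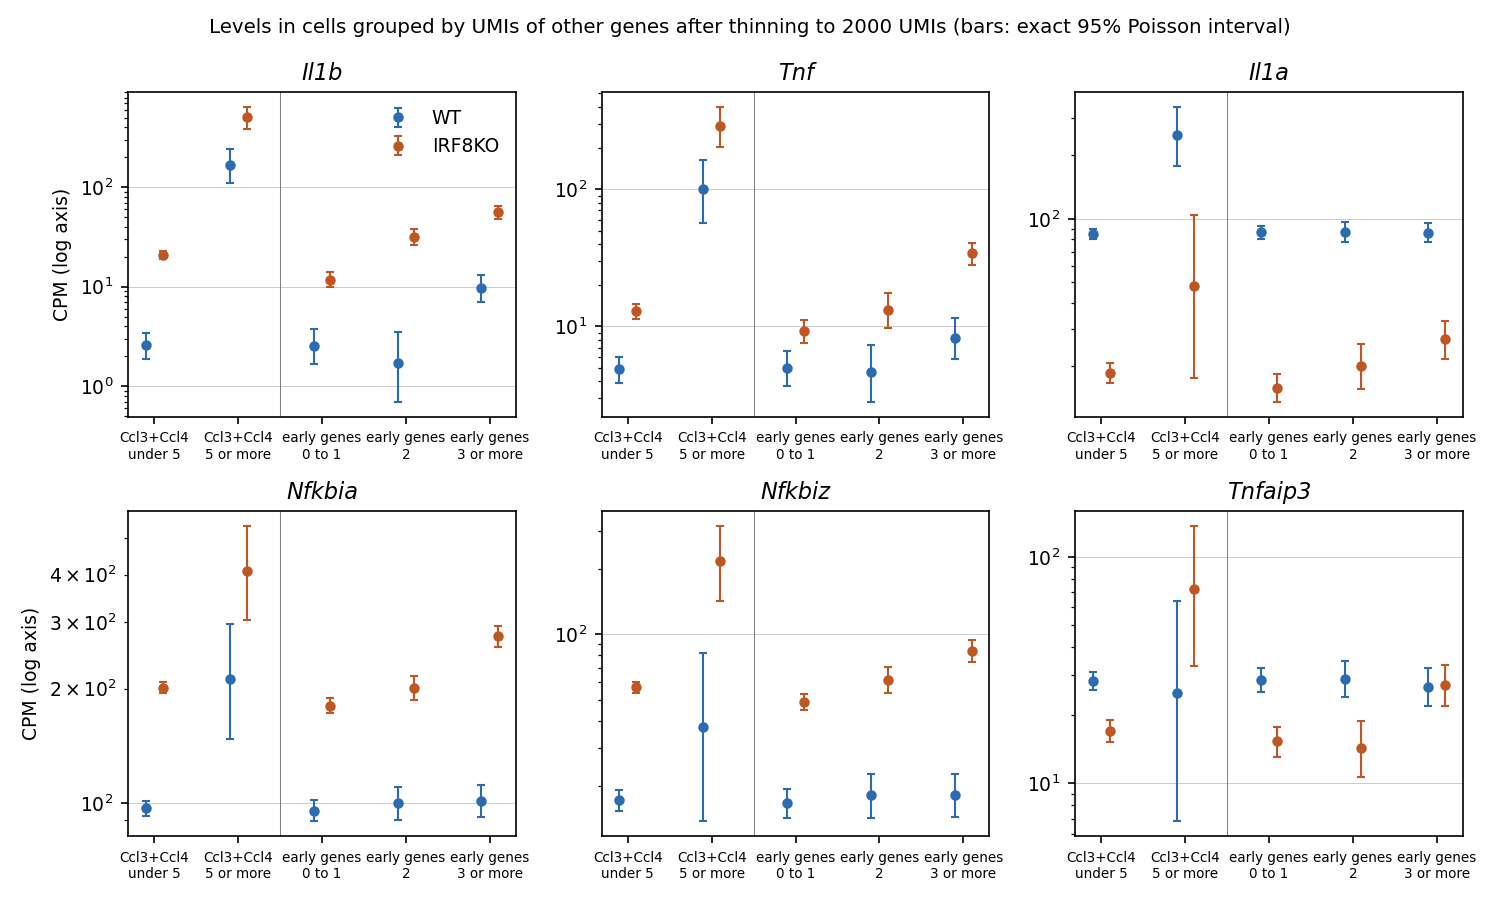
CPM on a log axis of 6 genes in each library, in cells grouped by UMIs of Ccl3 and Ccl4 (left of the line) or of 9 immediate early genes (right) after thinning to 2000 UMIs, with exact 95% Poisson intervals. Il1b and Tnf are highest in the cells with 5 or more Ccl3 and Ccl4 UMIs in both libraries, and Il1a is higher in WT in each range.

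Further ranges of cells were set by interferon, MHC class II and other genes. In the library labelled IRF8KO, cells with 5 or more UMIs of 8 interferon genes numbered 215 and had Il1b at 54.0 CPM and Tnf at 44.8 CPM, against 22.7 and 13.3 CPM in the rest, while Nfkbia was at 206 and 202 CPM and Il1a at 19.5 and 18.7 CPM. Cells with 2 or more UMIs of Lgals1, Cst7 and Cd72 had Il1b at 38.1 CPM, against 21.4 CPM in cells with none. Cells with 3 or more UMIs of Clec12a, Mrc1 and Igf1 had Il1b at 12.98 CPM and Il1a at 11.1 CPM, against 28.6 and 21.9 CPM in cells with 0 or 1. In WT, the 49 cells with any UMI of these genes had 1 or 2 and held 19 Il1b UMIs in 3 cells, or 83.4 CPM. The WT cell with 17 Il1b UMIs was among these 3. Il1b was thus lower in the upper range of IRF8KO cells than in that of WT cells, at log2 -2.68 (-3.46 to -1.85). That reverse of its overall ratio rests mainly on 1 WT cell, and the interval does not cover such packing of UMIs. The limits of the range also differ between the libraries. Cells with 10 or more UMIs of MHC class II genes numbered 2 among WT cells and 19 among IRF8KO cells. The 19 IRF8KO cells held no Il1b UMI and 15 Tnf UMIs, or 75.5 Tnf CPM against 14.1 in the rest of that library. Without such cells of either library the Tnf ratio was 1.31 (0.97 to 1.65) among thinned cells.

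The IRF8KO cells with 3 or more Il1b UMIs were examined for markers of other cells. There were 43, with 270 of the 442 UMIs and a median of 3750 UMIs per cell, against 2906.5 in cells without Il1b. In them the 11 microglia markers summed to 15276 CPM and the 8 border macrophage markers to 2897 CPM, against 17380 and 2625 CPM in cells without Il1b. The 8 neutrophil markers summed to 55.9 CPM, against 54.3, and the 6 monocyte markers to 14.0 CPM, against 24.1. The 6 dendritic cell markers summed to 24.4 CPM, against 19.5. Of the neutrophil markers, S100a8 stood at 24.4 CPM (7 UMIs), against 16.96, and S100a9 at 6.98 CPM (2 UMIs), against 21.3. Leaving out all cells that held a UMI of any blood cell marker kept 3014 of 3304 WT cells and 3757 of 5007 IRF8KO cells. The Il1b ratio was then 2.18, the lowest of its alternatives, and the part of the cells left out was not tested. The 43 cells with 3 or more Il1b UMIs had Cxcl2, a neutrophil-attracting chemokine, at 677 CPM against 38.4 and Ccl4 at 614 against 39.1. They had Tnf at 97.7 against 13.5, Il1a at 101 against 16.1 and Nfkbia at 381 against 199. Of the 43, 14 had an Il1a UMI, 10 a Tnf UMI and 11 a Cxcl2 UMI. These cells were chosen by Il1b itself, and the values describe them.

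The 12 IRF8KO cells with 3 or more Tnf UMIs differed in part from these. They had Nfkbiz at 376 CPM, against 53.5 in cells without Tnf, Nfkbia at 580 against 196 and Cxcl10 at 2147 against 15.2. They also had Cd74, an MHC class II companion, at 815 CPM against 91.5. Cd74 UMIs lay in 3 of the 12 cells and Cxcl10 UMIs in 4. Nfkbia and Nfkbiz each had a UMI in 11 of the 12, Il1b in 3 and Cxcl2 in 2. In WT, 3 cells had 3 or more Il1b UMIs, with Ccl4 at 4509 CPM and Il1a at 353 CPM, and 1 cell had 3 or more Tnf UMIs.

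Genes most like each member were sought by Pearson correlation across thinned cells of a library, on the log of 1 plus the count, among genes with at least 50 CPM. In the library labelled IRF8KO the 5 leading genes for Il1b were Cxcl2 (0.18), Cd83 (0.18), Ccl4 (0.18), Zfp36 (0.10) and Ccl12 (0.10). For Tnf they were Ccl4 (0.16), Cd83 (0.14), Ccl12 (0.14), Cxcl2 (0.13) and Nfkbiz (0.12). For Nfkbia they were Junb (0.16), Icam1 (0.14), Gpr84 (0.14), Cd83 (0.12) and Tlr2 (0.11). Cd83, a surface protein of activated myeloid cells, was among the 5 for 7 of the 10 members, and Cxcl2 for 5. In WT, where Il1b and Tnf had under 200 UMIs and were left out, no leading correlation exceeded 0.09. Cells of a library share 1 pool and 1 depth of sequencing, all of these correlations are weak, and in counts this sparse they are given as a description.

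The ratios were also taken within quartiles of cells by UMIs, each library by its own limits. In the highest quartile, 825 WT cells had 5150 to 93350 UMIs and 1252 IRF8KO cells had 3863 to 40063. The 4 quartiles, from lowest to highest depth, gave Il1a log2 ratios of -2.88, -2.22, -1.98 and -2.25, and Il1b ratios of 2.85, 2.22, 2.14 and 2.84. Nfkbia gave 1.04, 1.35, 1.07 and 0.98, and Nfkbiz 1.74, 1.61, 1.80 and 1.83. Tnf gave 1.29, 1.80, 1.05 and 1.45. These 5 genes kept their side in every quartile, with intervals that left out 0. Tnfaip3 gave -0.73, -0.46, -0.04 and -0.91, and its intervals in the second and the third quartile included 0. In WT the 50 cells with most Il1a held 17.5% of it, and cells with 3 or more Il1a UMIs had a median of 26866 UMIs, so high counts of Il1a per cell went with depth there.

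**Figure D4:**
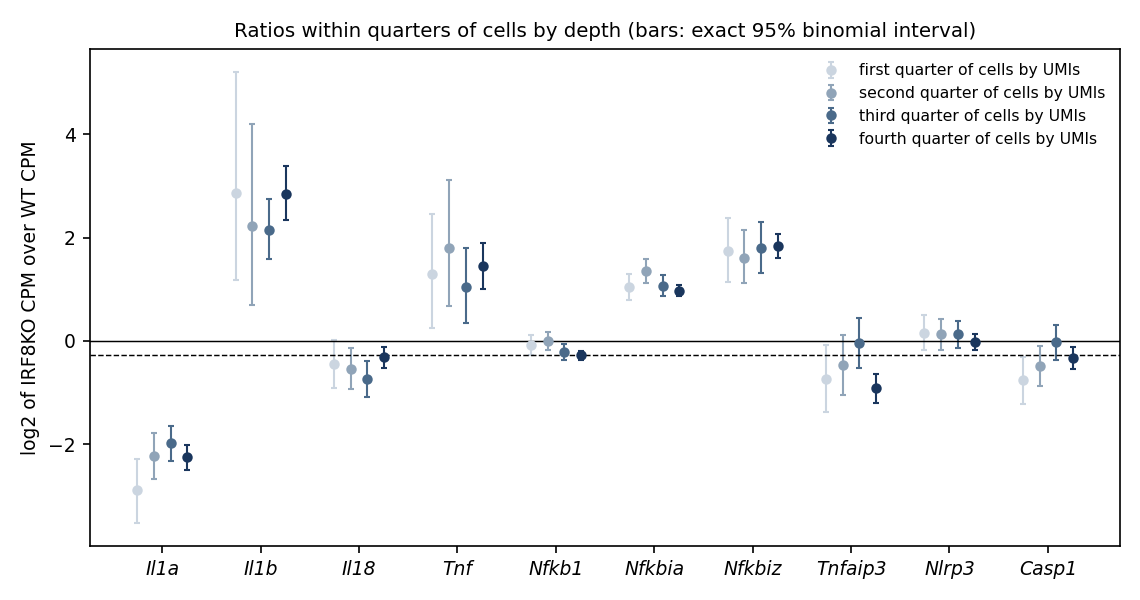
Log2 ratio of IRF8KO over WT CPM for each gene within quartiles of cells by UMIs (pale to dark, lowest to highest depth), with exact 95% binomial intervals, a solid line at 0 and a dashed line at -0.28, the median of all genes. Il1a lies below both lines and Il1b, Tnf, Nfkbia and Nfkbiz lie above them in every quartile.

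The wider pathway was described by 6 lists, with the 10 genes left out of each. Of 77 other genes, 59 reached 10 CPM in either library, of which 7 had a log2 ratio of 1 or more and 8 of -1 or less, beside the 5.61% and 9.28% of all genes. Among the other NF-kB subunits none of 4 passed 1 in either direction, with a median of 0.04. Nfkb2, the p100 precursor, stood at 0.59 (10.2 and 15.4 CPM), Relb at 0.50 (22.9 and 32.4 CPM) and Rel at -0.58 (147 and 97.9 CPM). Among the other inhibitors and feedback genes none of 9 passed 1, with a median of -0.09. A further 4 of that list fell under the minimum and are named outside the rule. They were Bcl3 at 2.18 (1.83 and 8.32 CPM), Dusp1 at 1.81 (2.70 and 9.43 CPM), Irak3 at 0.71 and Nfkbid at 0.17. Tnip1, a partner of A20, had 14.8 and 29.1 CPM, a ratio of 0.98 (0.77 to 1.19). Socs3, an inhibitor of cytokine receptors, stood at 0.63 and Tnip2 at -0.34. None of 15 kinases and adaptors passed 1, and their median was -0.22, with Tab2 at -0.89, Map3k7 at -0.71 and Myd88 at -0.57.

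Of the other inflammasome genes, 10 of 13 had a ratio below 0 and 3 above 0, beside 25.1% of all genes above 0. That count is near the share of all genes. Of these 13 with at least 10 CPM, 6 had a ratio of -1 or less and none of 1 or more, beside 9.28% and 5.61% of all genes. Of the 6, Naip6 (19.4 and 0 CPM) and Nlrp1a (11.1 and 5.22 CPM) met the minimum only through WT cells. The median over the 13 was -0.89, or -0.61 relative to all genes. Pycard, the adaptor that links sensor to caspase, had 8565 WT UMIs and 2991 IRF8KO UMIs, or 462 and 158 CPM, log2 -1.55 (-1.61 to -1.49). Naip5, a sensor of bacterial flagellin, had 35.9 and 10.7 CPM, log2 -1.74 (-1.97 to -1.51). Naip6, a close relative, had 359 UMIs in 328 WT cells and none in the library labelled IRF8KO, at least 122-fold lower at a floor of 3 counts per library. Of these 13, the 3 above 0 were Nlrp1b at 0.27 (0.06 to 0.48), Casp4 at 0.25 (0.04 to 0.45) and P2rx7 at 0.05 (-0.03 to 0.14), named after their values were seen. Naip2 stood at -1.50, Casp8 at -1.43 and Nlrp1a at -1.08. The 2 genes under the minimum, named outside the rule, were Nlrc4 and Mefv. Nlrc4 was higher in IRF8KO cells, with 3 WT and 39 IRF8KO UMIs, log2 3.67 (2.01 to 6.01), and Mefv had no UMI. The Naip genes and the Nlrp1 genes are families of near-identical copies, so the division of reads among them is uncertain.

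The other cytokine genes went both ways. Of 9 with at least 10 CPM, 4 had a ratio of 1 or more and 1 of -1 or less, beside 5.61% and 9.28% of all genes. However, Cxcl1, Cxcl2 and Cxcl10 met the minimum only through IRF8KO cells and Il6 only through WT cells. Cxcl1 and Cxcl2, ligands of the neutrophil receptor CXCR2, had no UMI in WT and 307 and 958 UMIs in 246 and 362 cells of the library labelled IRF8KO. They were at least 99.98-fold and 312-fold higher at the same floor. Cxcl10 stood at 2.86 and Csf1, a growth factor of macrophages, at 1.36. Il6 had 193 UMIs in 165 WT cells and 4 UMIs in IRF8KO cells, at log2 -5.63 (-7.52 to -4.25). Ccl3 was at 0.05 and Ccl4 at -0.56, so Il1b and Tnf differed from these chemokines in direction or size.

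Among receptors and antagonists, 3 of 9 had a ratio of 1 or more and 1 of -1 or less, beside 5.61% and 9.28% of all genes. Il1r1, the receptor for both interleukin-1 ligands, had 41 and 244 UMIs, log2 2.54 (2.06 to 3.05). Il18rap, a chain of the interleukin-18 receptor, stood at 2.99 and Il18bp, its soluble antagonist, at 2.52. All 3 had under 3 CPM in WT, so they met the minimum only through the library labelled IRF8KO. Il10ra was the lower gene, at -1.02 (233 and 115 CPM). Il1rn, the interleukin-1 receptor antagonist, fell under the minimum with 0.324 and 4.27 CPM and is named outside the rule.

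**Figure D5:**
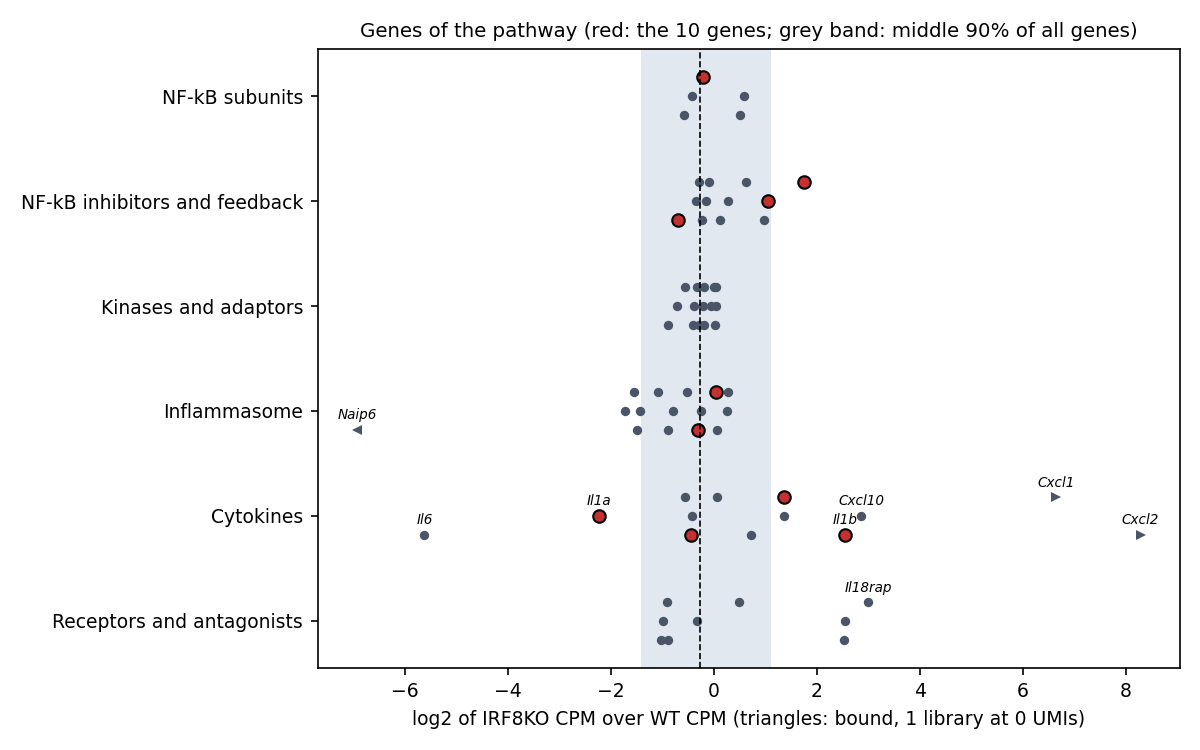
Log2 ratio of IRF8KO over WT CPM for genes that reached 10 CPM in either library, by list, with the 10 genes in red, the middle 90% of all genes as a grey band and their median dashed. Triangles are bounds where a library had no UMI, and names are given for some genes far from the centre; 6 inflammasome genes lie at -1 or less.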

How the data were processed

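Each deposited matrix holds UMI counts, as whole numbers, for every gene and barcode, as made by the authors. Cell Ranger 3.1, bcl2fastq, Scanpy and the mm10 build are named in the submitters' processing notes, and software version 3.1.0 stands in the file headers; for annotation and cell calling, settings were not given in the sources used here. A full-length RNA kit is also named in the labels, but the values have the form of droplet counts.

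UMIs were summed over the cells used and scaled to CPM (Python 3.11.15, scipy 1.17.1; TMM from edgeR 4.0.16). Ratio intervals are exact conditional binomial, CPM intervals exact Poisson and shares Clopper-Pearson. A count of 0 was set to 3 counts. No test of genotype was possible with 1 library per group. No doublet caller was applied; an alternative left out the 5% of cells with most UMIs. Ratios and thinning were tested on simulated data. The 10 genes and the lists were chosen with earlier results of these data known. Named genes are the 10 members, the 3 others of each list with the largest absolute ratio at 10 CPM or more, and the 5 genes most correlated with each member; others are named because a count of 6 or fewer holds them or because they mark a group of cells, chosen after their values were seen. Per-cell ranges use cells of at least 2000 UMIs.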

Additional observations from a re-analysis of the deposited data

Results flagged for a closer look

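Signal lay outside the compared cells, in the 98 cells of the library labelled IRF8KO set aside for neutrophil genes, a set that had no WT cell. They held 3 Il1b UMIs in all, or 3.56 CPM, against 23.3 CPM in the cells used. The reported ratio leaves these cells out, and with them included the Il1b log2 ratio was 2.49. They also held 22 Tnf UMIs (26.1 CPM, against 14.7) and 114 Nfkbia UMIs (135 CPM, against 203). The cells are well separated by the threshold: the lowest share among them was 2.36% of UMIs and the highest among the cells used was 0.232%.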

How the results depend on the processing

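No paired analysis was possible because each group is a single library, and no library could be left out. The counts of 4 genes at 1 or more and 1 at -1 or less were the same under the 15 alternatives run, 2 of which could not change them: a 1% neutrophil threshold removed no further cell, and all 10 genes already met the minimum CPM. The median over the 10 genes changed side under TMM scaling, to 0.17, and when mitochondrial and ribosomal protein genes were taken out of the totals, to 0.065, by the common factor of the scaling. Nfkb1 changed side under TMM scaling, to 0.044, and Nlrp3 with neutrophil cells included, to -0.0092; both lie near 0. A further 3 alternatives were added after seeing the data: without MHC class II cells, without cells holding a UMI of any blood cell marker, and without cells over 20000 UMIs. Blood cell markers gave the lowest Il1b ratio, 2.18, and the lowest Tnf ratio, 1.14, with 3014 of 3304 WT cells and 3757 of 5007 IRF8KO cells kept. Without the 50 cells that held most Il1b, no Il1b UMI was left in WT cells and 158 in IRF8KO cells. Only 47 WT cells held any Il1b UMI, so the WT count of 0 was fixed in advance. For Il1b, this alternative is therefore no check of the ratio. Depth limits Il1b and Tnf most, with 74 and 106 UMIs in WT.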
